A study of Mus musculus with 24 samples.

Results

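Red cell membrane skeleton genes are described here in 24 single cells of the burst-forming unit-erythroid (BFU-E), an early progenitor committed to making red cells. The genes were chosen by symbol from the known proteins of the red cell membrane and its skeleton, and all 8 were found among the 49585 genes of the table: Sptb, Ank1, Epb41, Epb42, Add1, Add2, Slc4a1 and Rhag. The cells came from fetal liver of C57/Bl6J mice at embryonic day 14.5, after lysis of mature red cells and removal of cells that carried markers of other lineages, of stem cells (Sca-1), of CD41, of CD16/32 or of Ter119, a late red cell antigen. They were sorted on CD117, CD71 and CD24, 1 cell to a well, and profiled by Smart-seq2, which copies polyadenylated RNA along its length. All cells form 1 untreated group on 1 plate, with no embryo named for any cell, so the values describe these cells and carry no test between conditions.

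The membrane skeleton is a net of spectrin under the red cell's lipid bilayer that lets the cell bend and recover its shape. Spectrin ends meet at short actin filaments, where protein 4.1 and adducin hold the junction together, and ankyrin ties the net to the anion exchanger band 3, with protein 4.2 and the Rh proteins in the same complex. Inherited loss of spectrin, ankyrin, band 3, protein 4.2 or protein 4.1 in humans gives round or elliptical red cells that are destroyed early. A mature red cell, which has no nucleus, must have made all of its membrane proteins beforehand.

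The genes were in widely different states in these progenitors. Detection means a minimum of 5 counts in the cell, and levels are in CPM, the counts per 1000000 of that cell's total, given as mean ± SD over 24 cells. Both adducin genes, protein 4.1 and the Rh-associated glycoprotein were detected in at least 12 cells, so 4 of the 8 genes passed that mark, and none was detected in all 24. Over all 21734 protein-coding genes the share detected in at least 12 cells was 26.1%, and among 36 other genes of the red cell membrane and skeleton it was 25 of 36. The median over the 8 genes was 11 cells, against 1 cell over all protein-coding genes. Ank1 was intermediate, Sptb was in few cells, and protein 4.2 and band 3 were at or near 0.

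**Figure D1:**
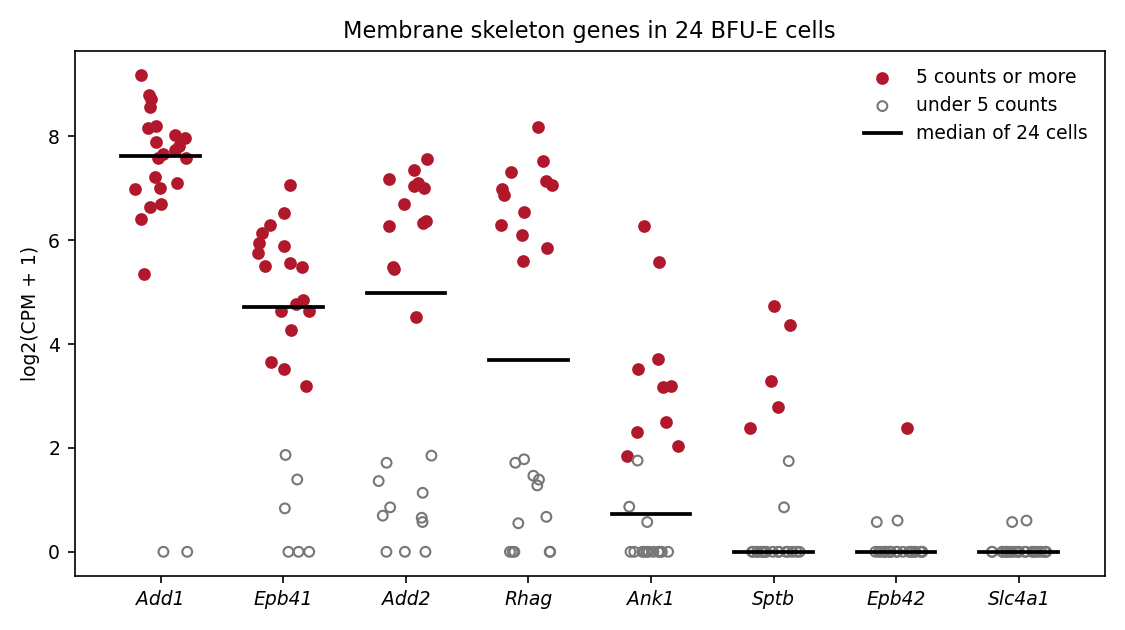
Level of each of the 8 genes in each cell on the log2(CPM + 1) scale, 24 points to a gene, with filled points for cells with 5 counts or more and a bar at the median. Add1 is high in 22 cells, Add2 and Rhag each fall into a high and a near-0 set of cells, and Epb42 and Slc4a1 lie at the base of the axis.

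Add1 encodes α-adducin, which caps actin filaments and recruits spectrin to them (ENSMUSG00000029106, GRCm38 chr5:34573664-34632308, plus strand). Add1 passed 5 counts in 22 of 24 cells, a share of 91.7% whose 95% interval (exact binomial, as below) was 73.0 to 99.0, at 209 ± 142 CPM with a median of 196 and a maximum of 582 in cell 17. The 2 remaining cells, 9 and 24, had 0 counts, and the lowest of the 22 had 49, so no cell lay near the limit of detection. Add1 alone held 55.7% of the 14238 counts of the 8 genes.

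Add2 encodes β-adducin, the partner that forms heteromers with α-adducin and is found mainly in red cells and brain (ENSMUSG00000030000, chr6:86028681-86124409, plus strand). Add2 was found in 13 cells (54.2%, interval 32.8 to 74.4) at 56.1 ± 63.4 CPM. Among these 13 cells the lowest had 25 counts, the median level was 102 CPM and the highest 188 CPM, in cell 11. The other 11 cells had 0 to 3 counts, 8 of them with at least 1, so Add2 was either clearly present or almost missing. Every cell with Add2 also had Add1, while 9 cells had Add1 without Add2.

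Epb41 encodes protein 4.1, which strengthens the hold of spectrin on actin (ENSMUSG00000028906, chr4:131923413-132075321, minus strand). Protein 4.1 transcripts were found in 18 cells (75.0%, interval 53.3 to 90.2) at 34.7 ± 34.3 CPM, with a median of 25.1 and a maximum of 133 CPM in cell 9. Its 6 remaining cells had 0 to 3 counts and the lowest detected cell had 11. Unlike the adducins it had no wide gap between the cells with it and those without.

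Rhag encodes the Rh-associated glycoprotein, a membrane channel thought to pass ammonia, which the Rh proteins need to reach the membrane (ENSMUSG00000023926, chr17:40811126-40840754, plus strand). Rhag was present in 12 cells (50.0%, interval 29.1 to 70.9) at 62.4 ± 78.1 CPM, with a median of 24.9 over all cells. In the 12 cells with it the level ran from 47.3 CPM in cell 21 through a median of 121 to 290 CPM in cell 5. The 12 others had 0 to 3 counts, against at least 79 in the cells with it, which is the widest gap among the 8 genes. The same 12 cells were called at 10 counts, at 10 CPM and after thinning every cell to the depth of the shallowest.

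Ank1 encodes ankyrin, the adaptor between spectrin and band 3 (ENSMUSG00000031543, chr8:22974844-23150497, plus strand). Ank1 was present in 10 cells (41.7%, interval 22.1 to 63.4) at 7.52 ± 17.7 CPM. That mean rests on cell 21 with 128 counts (76.6 CPM) and cell 5 with 91 (47.1 CPM), and it was 4.51 ± 9.99 CPM without cell 21. The other 8 cells with Ank1 had 5 to 18 counts.

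Sptb encodes the erythroid β-spectrin (ENSMUSG00000021061, chr12:76580488-76710547, minus strand). It was detected in 5 cells (20.8%, interval 7.13 to 42.2), at 4.19 CPM in cell 21, 5.89 in cell 12, 8.80 in cell 5, 19.6 in cell 15 and 25.5 in cell 20. Cells 14 and 19 had 3 counts and 1 count, and 17 cells had none. The mean was 2.80 ± 6.54 CPM, or 1.81 ± 4.50 without cell 20.

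Epb42 encodes protein 4.2, which binds band 3 and ankyrin (ENSMUSG00000023216, chr2:121017891-121037072, minus strand). It reached 7 counts (4.25 CPM) in cell 20, had 1 count each in cells 5 and 6, and had 0 in 21 cells. Its mean of 0.219 CPM thus rests on cell 20, and was 0.0437 CPM without it. Slc4a1 encodes band 3, the most abundant protein of the red cell membrane (ENSMUSG00000006574, chr11:102348824-102366203, minus strand). It was detected in 0 of 24 cells, which allows a share of up to 14.2% by the exact binomial interval, and its only 2 counts lay in cells 5 and 6. A count of 0 allows up to 3 counts, or 1.39 to 3.42 CPM depending on the cell's depth. The summed Slc4a1 counts gave 0.0550 CPM over all cells (exact Poisson 95% interval 0.00666 to 0.199), and all such intervals and limits cover counting error only, since PCR copies are not independent molecules.

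Because Smart-seq2 reads spread along a transcript, levels of different genes were compared as CPM per kilobase of merged exons. On that scale Rhag had the highest mean level at 26.7 ± 33.4 CPM per kilobase and Add1 followed at 24.5 ± 16.6. The order of these 2 did not hold cell by cell, since Rhag was above Add1 in 10 cells and below it in 14. Add2 had a mean level of 5.54 ± 6.25 CPM per kilobase and was below Add1 in 21 cells, above it in 1. Epb41 came next at 2.17 ± 2.15 CPM per kilobase, with Add2 above it in 16 cells and below it in 8.

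The bottom of the order was separated by less than the spread over cells. The mean level per kilobase was 0.556 ± 1.31 for Ank1, 0.230 ± 0.538 for Sptb, 0.0404 ± 0.161 for Epb42 and 0.00857 ± 0.0290 for Slc4a1. Ank1 was above Sptb in 12 cells and below it in 4. Epb41 was above Ank1 in 18 cells and below it in 4. Merged exons overstate the length of a gene with many alternative exons: per kilobase of the longest annotated transcript Add1 came to 46.0, above Rhag at 26.7, while the other 6 genes kept their order.

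The sequences just before the starts of 4 of these genes are shown because the genes stand at different points of that order: Add1 in nearly every cell, Add2 and Rhag present or missing, and Sptb rare. Each is the 227 bases that end 24 bases before the gene's start in RefSeq (build GRCm38.p6), read 5′ to 3′ on the gene's own strand. Capitals mark 2 kinds of short motif found on either strand: the GATA hexamers, which GATA factors bind (the letters AGATAA or, with T as the first letter, TGATAA, and the forms that end in G, which are AGATAG or, with T as the first letter, TGATAG), and the octamer CCNCNCCC, the type of site bound by Klf1 and other Krüppel-like factors.
Rhag, chr17:40810899-40811125, plus strand: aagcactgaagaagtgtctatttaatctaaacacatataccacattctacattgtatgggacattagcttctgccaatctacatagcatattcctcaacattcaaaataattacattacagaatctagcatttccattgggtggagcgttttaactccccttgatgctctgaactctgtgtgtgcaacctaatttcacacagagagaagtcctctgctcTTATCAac
Add1, chr5:34573414-34573640, plus strand: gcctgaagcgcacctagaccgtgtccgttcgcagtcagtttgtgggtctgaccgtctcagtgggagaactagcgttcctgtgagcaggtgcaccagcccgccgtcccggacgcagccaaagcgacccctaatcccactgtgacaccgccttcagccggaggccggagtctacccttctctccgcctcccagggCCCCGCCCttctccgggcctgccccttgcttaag
Add2, chr6:86028431-86028657, plus strand: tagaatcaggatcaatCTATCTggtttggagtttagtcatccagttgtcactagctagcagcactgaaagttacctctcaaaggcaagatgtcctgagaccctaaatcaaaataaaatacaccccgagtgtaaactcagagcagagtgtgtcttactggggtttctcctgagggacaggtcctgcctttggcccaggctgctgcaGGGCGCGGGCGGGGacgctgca
Sptb, chr12:76710571-76710797, minus strand: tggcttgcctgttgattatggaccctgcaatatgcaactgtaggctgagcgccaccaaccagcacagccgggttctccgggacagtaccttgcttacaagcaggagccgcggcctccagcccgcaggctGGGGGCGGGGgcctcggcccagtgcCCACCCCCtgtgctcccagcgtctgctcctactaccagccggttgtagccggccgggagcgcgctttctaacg
The Rhag window held a GATA hexamer 31 to 26 bases before the RefSeq start and no CACCC-type octamer. The Rhag coordinates given earlier start at 40811126, directly after this window and closer to the hexamer. Its GC content was 37.9%, against a median of 52.0% over all windows. The Add2 window held a GATA hexamer 234 to 229 bases before the start and 2 overlapping octamers between 45 and 32 bases before it. Add1 had 1 octamer and Sptb had 3, of which 2 overlap, and neither had a GATA hexamer. The hexamers were not confined to Rhag and Add2. Among windows not printed, Epb41 window 1 held a hexamer 184 to 179 bases before its start, and Epb41 windows 2 and 3 held none. The Epb42 window held a hexamer 226 to 221 bases before the start. Of 32851 RefSeq windows of the same length, 25.1% held at least 1 of the GATA hexamers and 42.1% at least 1 of the octamers, so these letters are common and are given as a description only. RefSeq windows were matched for 6 of the 8 genes, Ank1 and Slc4a1 being the exceptions.

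The genes were next counted together within cells. A cell had 3.38 ± 1.66 of the 8 genes detected, with a median of 4 and a range of 0 to 6. Cells 5 and 20 had 6 genes each, cell 20 lacking Ank1 and Slc4a1 and cell 5 lacking Epb42 and Slc4a1. Cell 24 had 0, cells 9 and 19 had 1, and 15 of 24 cells had at least 3.

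**Figure D2:**
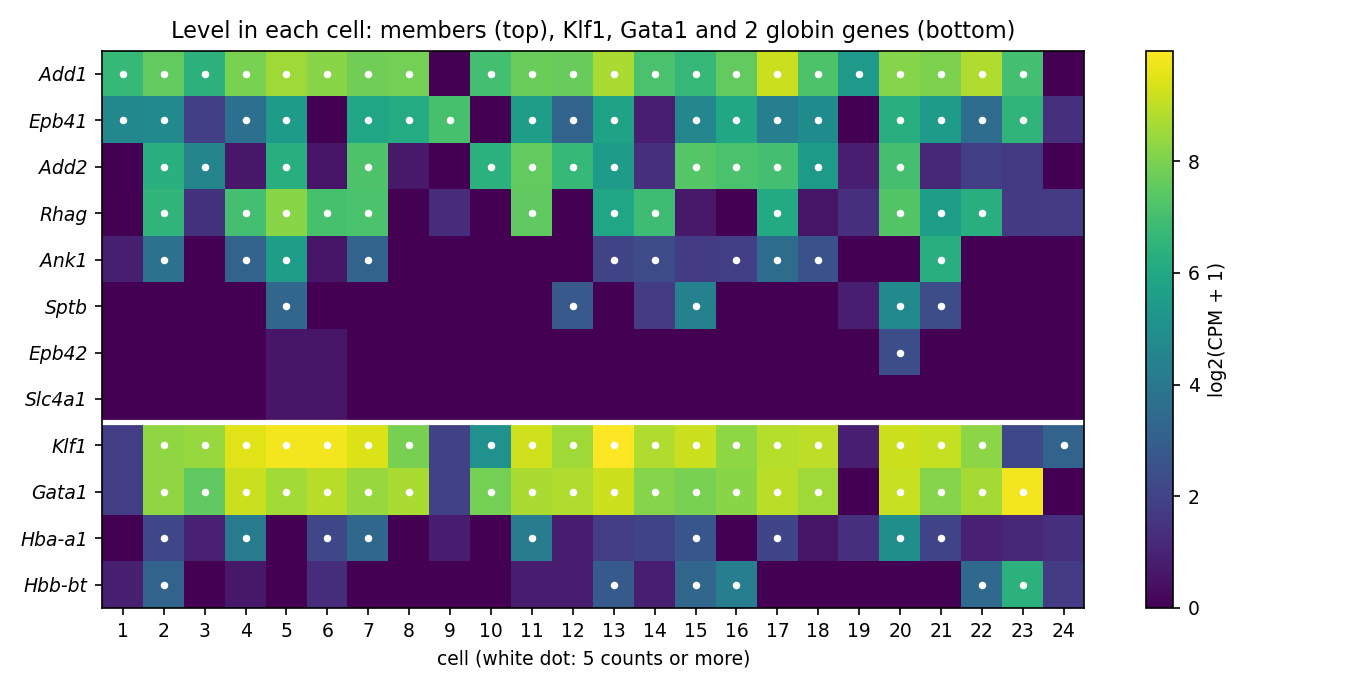
Level of the 8 genes, of the regulators Klf1 and Gata1 and of 2 adult globin genes in each of the 24 cells, coloured by log2(CPM + 1), with a white dot where a gene had 5 counts or more. Cells 5 and 20 carry 6 of the 8 genes, and cell 24 carries none.

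Of the 28 pairs of genes, 3 were detected together in at least 12 cells. Epb41 and Add1 shared 17 cells, which is 94.4% of the Epb41 cells and 77.3% of the Add1 cells. Add1 was with Add2 in 13 cells and with Rhag in 12, in each case all the cells of the rarer gene. Since only cells 9 and 24 lacked Add1, little else was possible for these pairs.

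Among pairs without Add1, Sptb shared all 5 of its cells with Epb41, which is 27.8% of the Epb41 cells. The only cell with Epb42 also had Sptb, Epb41, Add2 and Rhag. Add2 and Rhag were together in 7 cells, Add2 without Rhag in 6, Rhag without Add2 in 5 and neither in 6. Ank1 shared 8 of its 10 cells with Rhag and 9 with Epb41. Sptb and Ank1, whose proteins bind each other directly, were together in 2 cells, with Sptb alone in 3 and Ank1 alone in 8. Both counts were low, so a cell with no detection may hold either transcript below the limit.

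**Figure D3:**
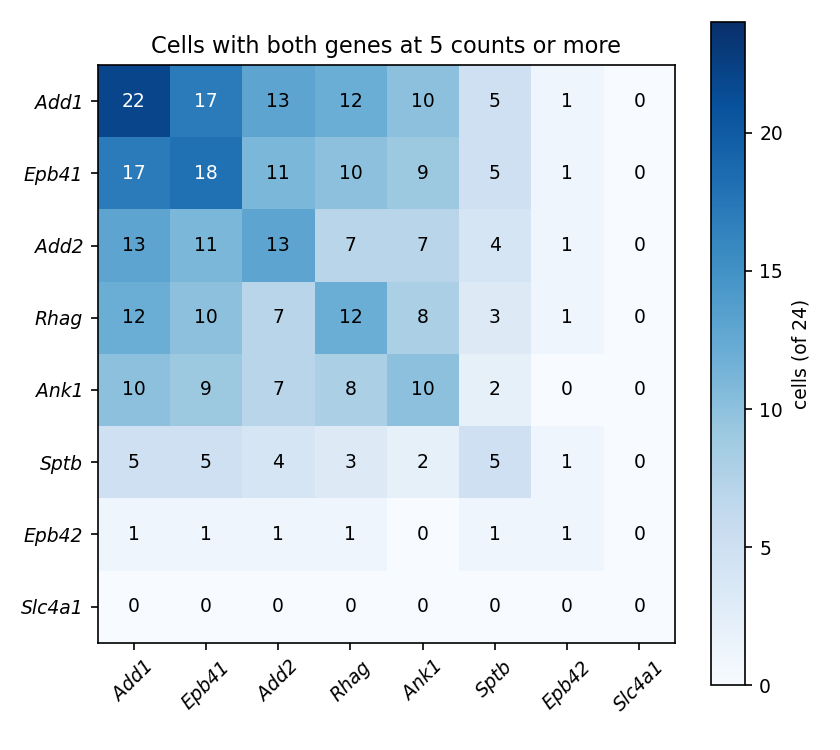
Number of the 24 cells in which both genes of a pair had 5 counts or more, with each gene's own number on the diagonal. The highest pair is Add1 with Epb41 at 17 cells, and Add2 with Rhag shares 7.

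The levels moved together only loosely. Over the 10 pairs of the 5 genes in at least 6 cells, the mean Spearman rho across the 24 cells, on the log2(CPM + 1) scale, was 0.238 with an SD of 0.146, against 0.00891 over all pairs of the 5962 genes in at least 12 cells. The highest was Add1 with Rhag at 0.52, and the lowest Epb41 with Rhag at 0.059. Within the 3 plate columns of 8 cells the mean was 0.367, 0.0794 and 0.0842, so it was highest in the first column. The cells share 1 plate, and the number of the 8 genes detected in a cell also followed its total count (rho 0.53) and its number of detected genes (rho 0.41), whose part in the co-variation was not tested.

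Globin was the marker of later maturation set beside the genes. The 4 adult globin genes, Hba-a1, Hba-a2, Hbb-bs and Hbb-bt, form pairs of almost the same sequence with uncertain separate counts, so their levels were summed. Detection was still called on each gene's own count, so the split of cells by globin shares that uncertainty. At least 1 of them was detected in 14 cells and none in 10, and the 4 embryonic globin genes had no count in any cell. Among the 10, cells 3, 14 and 24 had 5, 6 and 8 adult globin counts in sum, though no single gene reached 5. Levels were low even where detected, with a summed level of 13.2 ± 18.2 CPM, a median of 7.91 and a maximum of 85.5 CPM in cell 23. That cell also had Mpo, a myeloid gene, at 2507 CPM and Klf1 under 5 counts. The 8 hepatocyte markers, genes of another cell type, summed to a median of 18.8 CPM over the same cells. Whether globin counts this low are the cell's own transcripts was not tested.

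Summed per kilobase, the 8 membrane genes were at 59.7 ± 47.0 CPM with a median of 49.6, and the 4 adult globins at 17.6 ± 25.3 with a median of 10.1. The membrane sum was above the globin sum in 22 of 24 cells. The exceptions were cell 23, at 21.8 for the membrane genes against 121 for globin, and cell 24, at 1.14 against 8.64.

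Of the 10 cells with no adult globin detected, Add1 was on in 8, Epb41 in 5, Add2 in 4, Ank1 in 2, and Sptb and Rhag in 1 each. Of the 14 cells with globin, Add1 was on in 14, Epb41 in 13, Rhag in 11, Add2 in 9, Ank1 in 8, Sptb in 4 and Epb42 in 1. The 10 cells without globin included cells 1, 9 and 19, with neither Klf1 nor Gata1 detected, and cell 24, without Gata1. These carried 2, 1, 1 and 0 of the 8 genes. Among the 14 cells with globin, cell 23 lacked Klf1. The part of such cells in the difference was not tested. Rhag had cell 14 as its only cell without detected globin, and its 4 globin genes together had 6 counts. Across cells the Rhag level and the globin sum had a rho of 0.59. The split depends on how little globin is called: after thinning all cells to the same depth Rhag was in 3 of 12 cells without globin and 9 of 12 with it, and at 10 CPM in 7 of 17 and 5 of 7. After thinning, the cells without and with globin held Add1 in 10 and 12, Epb41 in 7 and 11, and Add2 in 5 and 8. Ank1 was then in 1 and 5, and Sptb in 1 and 3.

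Cells with at least 3 membrane genes and no adult globin detected numbered 3, cells 12, 14 and 18. Cell 12 carried Sptb, Epb41, Add1 and Add2, cell 14 carried Ank1, Add1 and Rhag, and cell 18 carried Ank1, Epb41, Add1 and Add2. Only cells 8 and 10 had no globin count at all, and each had 2 membrane genes, Epb41 and Add1 in cell 8 and Add1 and Add2 in cell 10. Which cells met this changed with the threshold, which applies to membrane and globin genes alike. At 1 count it was cell 8 alone, at 10 counts cells 5, 12, 18 and 21, after thinning cells 12, 13, 18 and 21, and at 10 CPM 8 cells that included 18 but neither 12 nor 14. Cell 14 thus met it at 5 counts only, and its 4 globin genes together had 6 counts, so on the summed count it would not meet it. The cells were sampled once and have no measured order in time, so a gene found without globin is a state of that cell and not a sequence of events.

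**Figure D4:**
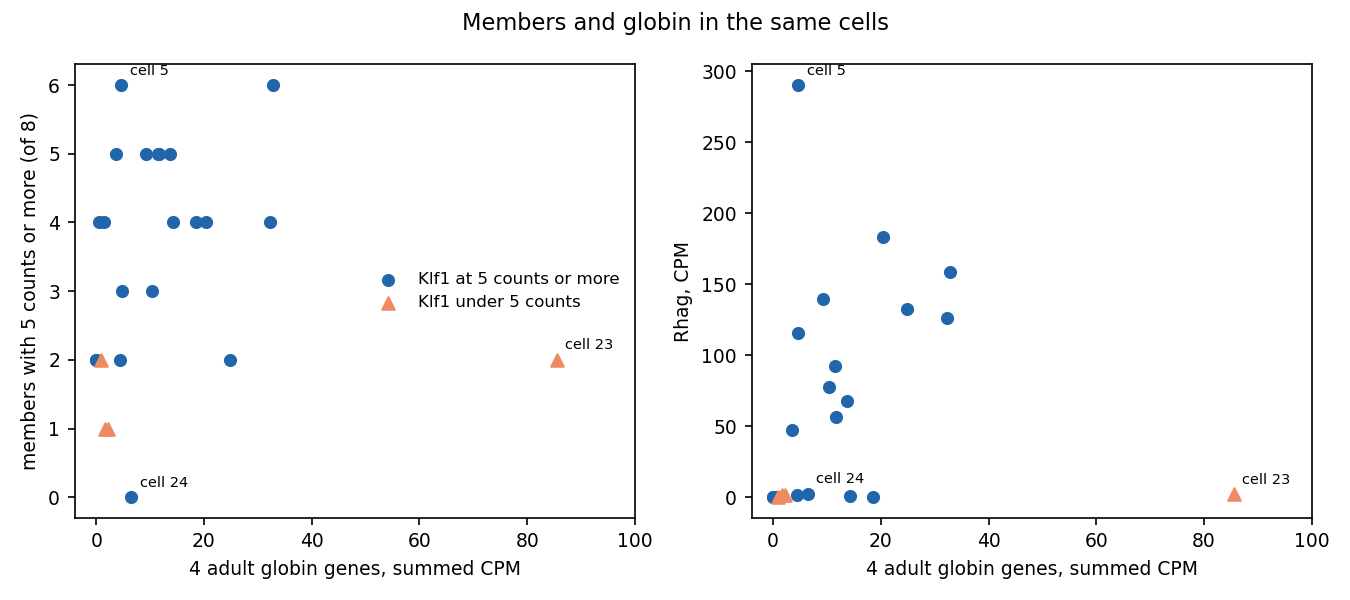
Number of the 8 genes detected (left) and Rhag level in CPM (right) against the summed CPM of the 4 adult globin genes, 1 point to a cell, with triangles for the 4 cells with Klf1 under 5 counts. Cell 23, with the highest globin sum at 85.5 CPM, has 2 of the 8 genes and almost no Rhag.

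The erythroid regulators were on in most of the cells that carried membrane genes. Gata1 and Klf1 encode transcription factors needed for red cell genes, and each was detected in 20 of 24 cells, Klf1 being missing from cells 1, 9, 19 and 23 and Gata1 from cells 1, 9, 19 and 24. Every cell with Rhag, Add2, Ank1, Sptb or Epb42 had both factors. Epb41 and Add1 did not keep to them, each being in 3 of the 4 cells without Klf1 and in 2 of the 4 without Gata1. No cell without Klf1 had 3 or more of the 8 genes.

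Among levels, Add1 had a rho of 0.75 with Gata1 and 0.66 with Klf1 across the 24 cells, Rhag of 0.65 and Ank1 of 0.53 with Klf1. Within plate columns 1, 2 and 3 the rho of Add1 with Gata1 was 0.93, 0.14 and 0.92. Epb41 had a rho of 0.095 with Klf1. Tal1, another factor of the same complexes, was in 16 cells, and the erythropoietin receptor Epor in 18. Of the 12 Rhag cells 10 had Tal1 and 11 had Epor, while cell 2 carried 5 of the 8 genes without Epor.

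Markers of other lineages differed in the same cells. In the 4 cells without Klf1 the 7 myeloid markers summed to 275 to 8901 CPM, with 5 of them detected and Elane and Ly6c2 at 0. In the 20 cells with Klf1 they summed to 0 to 320 CPM, with 3 detected and Elane, Csf3r and Ly6c2 at 0. Mpo, the myeloperoxidase of granulocyte precursors, had 339 to 8758 counts in the 4 cells without Klf1 and 0 to 305 in the 20 with it. The part of these transcripts in the lower number of membrane genes was not tested.

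Of the BFU-E markers all 11 were in at least 12 cells, with Kit in all 24. Of the 9 macrophage markers none was in 12 cells and Adgre1, C1qa, C1qb, C1qc, Vcam1 and Mrc1 had no count. Of the 8 hepatocyte markers only Afp was in at least 12 cells, being detected in 19. The sum of the 8 was 3.92 to 79.4 CPM except in cell 10, at 1281 CPM. Among megakaryocyte genes Itga2b was in 16 cells, in 8 of the 12 cells with Rhag and 8 of the 12 without it, and Pf4 and Ppbp had no count.

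The relatives of each gene were counted in the same way, to see which form of each family was transcribed. Among β-spectrins the erythroid Sptb was in 5 cells and the widely expressed Sptbn1 in 12, at 0.230 ± 0.538 and 2.87 ± 4.96 CPM per kilobase, and only 1 cell had both.

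Sptbn1 was seldom in the same cell as Add2 or Ank1. Add2 and Sptbn1 were together in 3 cells, Add2 alone in 10 and Sptbn1 alone in 9, with a rho of -0.54. For Ank1 and Sptbn1 the counts were 3 cells together, 7 with Ank1 alone and 9 with Sptbn1 alone, with a rho of -0.51. The same did not hold for every member: Sptbn1 was with Rhag in 4 cells (rho -0.25), with Epb41 in 7 (rho -0.20) and with Add1 in 10 (rho -0.37). All 4 cells without Klf1 had Sptbn1, against 8 of the 20 with it. The pairs of Sptbn1 with Add2, Ank1 and Klf1 were singled out after their values were seen.

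In the other families the red cell member was often the main one. Ank1 was the ankyrin of these cells, with Ank3 in 1 cell and Ank2 in 0. Epb41 was in more cells than any of its 6 relatives, of which Epb41l5 was in 12 and Epb41l2 in 5. All 3 adducins were in at least 12 cells, and the third, Add3, was in 21 at 15.1 ± 11.3 CPM per kilobase, below Add1 in 16 cells and above Add2 in 17. Rhag and its relative Rhd, the Rh protein it carries to the membrane, had mean levels of 26.7 ± 33.4 and 26.2 ± 38.7 CPM per kilobase, and 8 of the 9 Rhd cells also had Rhag (rho 0.63), while Rhbg and Rhcg had no count.

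Relatives of protein 4.2 and band 3 were in more cells than those genes, but none was in more than 6. Protein 4.2 is a transglutaminase relative without enzyme activity, and of that family Tgm2 was in 5 cells, Tgm1 in 4 and F13a1 in 2, with Epb42 in 1. Among bicarbonate transporters of the Slc4 family, Slc4a2 was in 6 cells, Slc4a7 in 4 and Slc4a8 in 1, and no other of the 9 genes listed reached 5 counts in any cell.

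**Figure D5:**
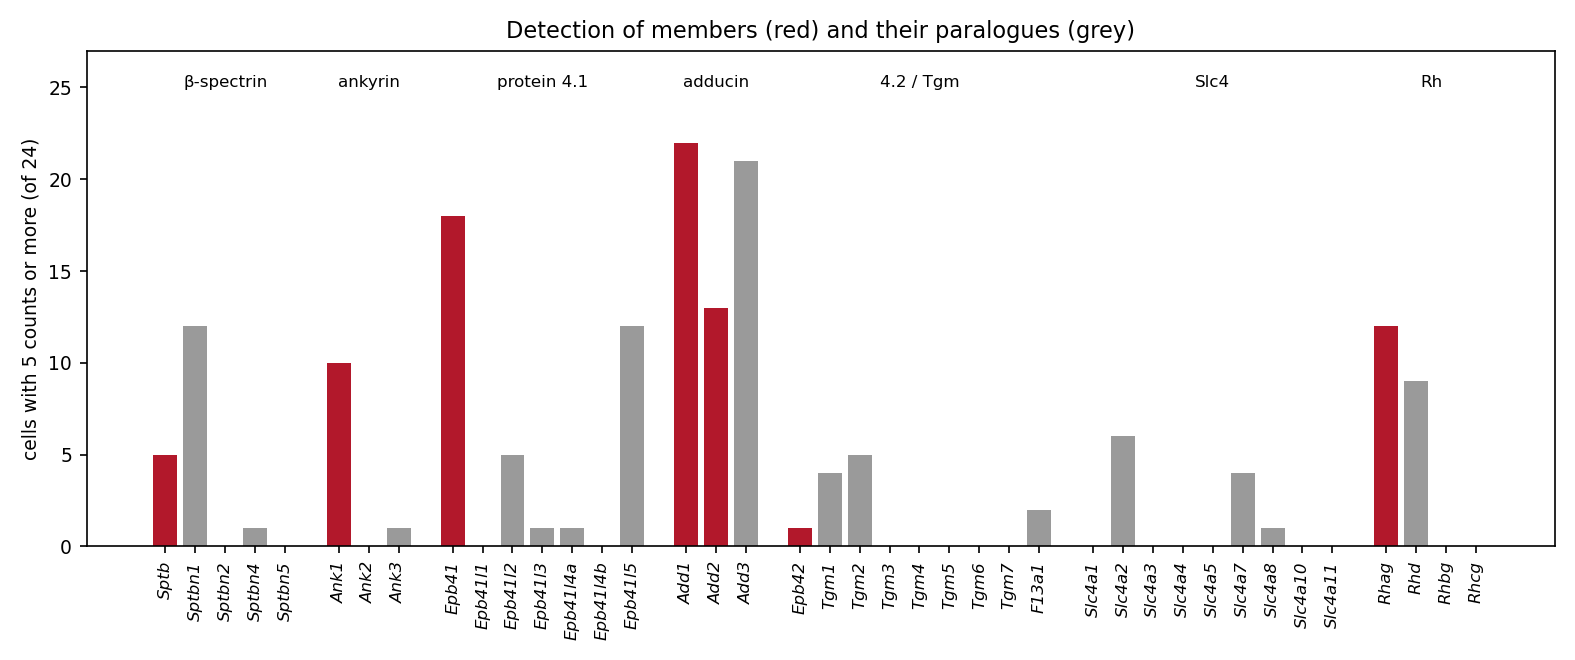
Number of the 24 cells with 5 counts or more of each gene, for the 8 membrane genes (red) and their relatives (grey), by family. Sptb is in 5 cells and Sptbn1 in 12, Add1 and Add3 are in 22 and 21, and no Slc4 gene is in more than 6.

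Around the 8 genes, most of the red cell membrane list was already present. Of 36 other genes, 25 were in at least 12 cells, 9 of these in all 24, and Icam4 had no count in any cell. The 5 with the highest mean level per kilobase were Actb, whose product forms the junction filaments, at 1979 ± 579 CPM per kilobase, Lgals9 at 316 ± 262, Bsg at 229 ± 49.9, Capzb, a filament-capping subunit, at 135 ± 48.3, and Cd47 at 98.5 ± 62.4. All 5 are also made by many other cell types. The haem synthesis enzymes stood at 8 of 9 in at least 12 cells, the exception being Alas2, the erythroid form of the first enzyme, in 2 cells.

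For each of the 4 broadly detected genes, the 3 genes most like it across the 24 cells were found by Spearman rho among 5962 genes. For Rhag they were Gnl3l (0.76), Aplp2 (0.73) and Fam210a (0.73). For Add1 they were Gata1 (0.75), Lrrc8c (0.75) and Alad, a haem synthesis enzyme (0.71). For Add2 they were Cited4 (0.71), Ndufs4 (0.68) and Ktn1 (0.65), and for Epb41 Mysm1 (0.82), Elob (0.68) and Romo1 (0.68). Within single plate columns of 8 cells these values ran from 0.14 (Add1 with Gata1, column 2) to 0.98 (Epb41 with Elob, column 2). For Rhag, Gnl3l had 0.33 in column 2 and Fam210a 0.17 in column 3. With so many genes and 24 cells high values are usual: the highest rho of a gene had a median of 0.720 over the 5962 genes, with the central 95% between 0.638 and 0.833, a range that holds the top value of all 4 genes. None of the 4 had another of the 8 genes named, since those were left out.

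The 24 cells had total counts of 876983 to 2155010, and 4767 to 7349 genes detected. The mean number of the 8 genes per cell was 3.25, 4.13 and 2.75 in the 3 plate columns, with SDs over the 8 cells of 1.49, 1.64 and 1.75. Sptb was in 0, 2 and 3 of 8 cells by column. Rhag was in 4, 6 and 2 of 8 cells by column and Add1 in 8, 8 and 6. Reads were not assigned by strand, but the annotated genes that overlap exons of the 8 were at 0 counts, except 1 count for Gm44089 within Add2.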

How the data were processed

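RNA of 24 single BFU-E cells was measured by Smart-seq2, without molecular identifiers and without strand information, per the labels' protocols. The table deposited by the authors holds raw read counts per gene, 1 column to a cell. The submitters' processing notes name STAR 2.4, featureCounts and GRCm38. Which annotation release was counted, and whether cells were filtered, is not given in the sources used here. Of 49585 Ensembl identifiers, 49326 matched a symbol, and the 259 others hold 0.0295% of counts. Coordinates and merged exon lengths came from GENCODE M21, on GRCm38.

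CPM used each cell's total of gene rows, with detection at 5 counts and correlations on log2(CPM + 1). The cells count as 1 sample, since no embryo is named, so no p-value was computed and spread is over cells. Globin copies share reads, so globin levels were summed, while globin detection was called gene by gene. The members, lists and settings were chosen with earlier results of these data known. Genes named are the 8 members, their families, the globins, Gata1, Klf1, Tal1, Epor and Alas2, the 5 highest per kilobase of the 36 other membrane genes with those detected in 0 cells, and the 3 nearest genes of each member in at least 12 cells, with predicted models, pseudogenes and mitochondrial genes passed over. Mpo, Itga2b, Sptbn1 and other marker genes were named after their values were seen, and some genes of the lists are not reported here. On simulated cells the search for nearest genes ranked 98.5% and 99% of 200 seeded genes among the top 200 of 5962, at noise SDs of 0.3 and 0.8 (natural log). The seeded genes shared 1 strong on-off pattern while all others varied independently, so high recovery was nearly certain. It checks that the search runs and says nothing of the nearest genes named here. Alternatives were detection at 1 count, 10 counts or 10 CPM, thinning to 876983 counts, other scalings (edgeR 4.0.16 TMM, DESeq2 1.42.0 size factors), leaving out each cell and plate columns. Python 3.11.15, pandas 2.3.3, NumPy 2.4.6, SciPy 1.17.1 and R 4.3.3 were used.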

Additional observations from a re-analysis of the deposited data

How the results depend on the processing

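The count of 4 members in at least 12 cells was 4 at 10 counts, at 10 CPM and after thinning, and 5 at 1 count, where Ank1 joined. The number of members per cell was 2.92 to 4.5 over the detection settings, 2.75 to 4.13 over the plate columns and 3.26 to 3.52 with any cell left out. Cells with at least 3 members and no adult globin numbered 1 with detection at 1 count and 8 with detection at 10 CPM, against 3 as reported. The threshold moves the calls of members and of globin together: 2 cells have no globin at 1 count and 17 at 10 CPM. Pairs of members together in at least 12 cells numbered 9 with detection at 1 count. The mean pairwise rho was 0.0794 in plate column 2 and 0.0842 in plate column 3, and the cause was not tested. It was 0.200 to 0.266 with any cell left out and 0.233 to 0.256 under the other scalings, filters and pseudocount. The mean level of Add1 per kilobase was 46.0 with its longest transcript. For 6 of the 8 genes the SD over cells exceeds the mean, so a shift within 1 SD says nothing of their stability: Sptb averaged 0.101 CPM in plate column 1 and 4.58 CPM in column 2. Leaving out cell 20 moved the mean of Sptb and of Epb42 by over 1.5 times, cell 21 that of Ank1, and cell 5 that of Slc4a1, to 0.0212 CPM. Of the 3 nearest genes, 1 was shared with Pearson correlation for Epb41, Add1 and Rhag and 0 for Add2. At 5 counts a transcript present in a few copies can be missed, and 8 cells had 1 to 3 counts of Add2 and 7 of Rhag. No paired analysis was possible because there is 1 group.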
